A study of Mus musculus with 4 samples.

Results

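Collagens are the trimeric proteins that make up most of the organic matrix of bone, and 44 genes named as collagen chains were listed in all 4 libraries of bone marrow cells described here. The 34 treated here are those left after the chains of cartilage (Col2a1, Col9a1, Col9a2, Col9a3, Col10a1, Col11a1, Col11a2 and Col27a1) and the vascular basement membrane chains Col4a1 and Col4a2 were set aside, among 26600 genes listed in every library. They were chosen by name alone, and none of them was used to define or to name the classes of cells in which they are described. They fall into 7 fibrillar chains, 6 chains of type VI, 6 chains that decorate fibrils (FACIT), 2 short network-forming chains of type VIII, 2 multiplexins, 4 transmembrane chains, 4 chains of type IV and 3 others.

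Single-cell RNA sequencing had been done on Td+ cells of the endosteal bone marrow of male Col2:Td mice (strain B6SJL/F1), in which Cre under the collagen II promoter switches on the fluorescent reporter tdTomato, so that chondrocytes and the mesenchymal cells of bone and marrow carry it. The mice were untreated and were 1, 1.5, 3 or 16 months old. Each age is 1 library made from pooled mice, 2 at 1 month and 3 at the others, so age was not replicated. No test between ages or classes was made, and a difference between ages cannot be told apart from a difference between libraries, runs or gene lists.

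Type I collagen, a trimer of Col1a1 and Col1a2 chains, forms the fibrils that mineralise in bone, and types III and V co-assemble with it and set how fibrils form. Type VI makes beaded microfilaments around cells from Col6a1, Col6a2 and a longer chain, which is Col6a3 or one of its relatives Col6a4, Col6a5 and Col6a6. FACIT chains such as Col12a1, Col14a1 and Col16a1 attach to fibril surfaces, type VIII is a product of vascular and stromal cells, and the multiplexins Col15a1 and Col18a1 sit at basement membranes.

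The 24084 cells kept had 200 to 6000 genes and at most 5% mitochondrial UMIs. The mitochondrial limit took out 1.16%, 5.07%, 7.22% and 32.4% of barcodes in the order of age. The libraries held 32672631 to 108227184 UMIs (unique molecular identifiers, which count RNA molecules), with medians of 6264 to 10280 per kept cell, and pairs of libraries shared 1 to 61 barcodes. The classes were early progenitor-like (EMP-like, 51 to 168 cells per library), late progenitor-like (LMP-like, 236 to 654), osteoblast-like (OB-like, 299 to 358), osteocyte-like (Ocy-like, 33 to 94), adipocyte lineage-like (AD-like, 215 to 3687) and chondrocyte-like (CH-like, 119 to 1966) cells, beside endothelial-like, mural-like and blood cells, the last being cells that the reporter should not mark. Each name rests on at least 3 fixed markers, none of them a collagen. Levels are given as CPM, the UMIs of a gene scaled by all UMIs of a class in 1 library, and intervals in parentheses are 95% Poisson intervals that cover counting error only. Ratios of levels within a class are ratios of CPM, and a count of 0 was set to a floor of 3 counts in them. Neutrophil-like cells, which should make none of these chains, are given as the level that free RNA can give. At 1.5 months they are a poor measure of it: the 152 neutrophil-like cells summed to 15508 CPM of chondrocyte markers, against 18106 CPM in CH-like cells, and to 36.6 to 269 CPM in the other libraries. Erythroid-like cells, with 1226 CPM of the same markers, are given there instead. Neutrophil-like cells also carried tdTomato RNA, at 3054, 1841, 2711 and 671 CPM in the order of age. OB-like cells had 3129, 3639, 3524 and 4169 CPM of it, and the source of the reporter RNA in blood cells was not tested.

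Collagen RNA was concentrated in bone-forming cells. The 34 genes took 10.4%, 13.2%, 9.87% and 17.4% of all UMIs of OB-like cells at 1, 1.5, 3 and 16 months, and 13.2%, 14.2%, 11.8% and 13.8% in Ocy-like cells. They took 4.27%, 7.77%, 7.77% and 4.13% in LMP-like cells and 2.29%, 3.22%, 1.37% and 1.47% in EMP-like cells. AD-like cells were lowest of these classes in each library, at 0.557%, 0.651%, 0.406% and 0.403%. OB-like and Ocy-like values lay above all LMP-like values, these above all EMP-like values, and these above all AD-like values. Neutrophil-like cells held 0.122%, 0.663%, 0.0575% and 0.0976%, and erythroid-like cells 0.131%, 0.262%, 0.0475% and 0.807%. The last value, of which 92.5% was type I, lay above the AD-like share. How much of the AD-like share is free RNA was not tested.

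**Figure D1:**
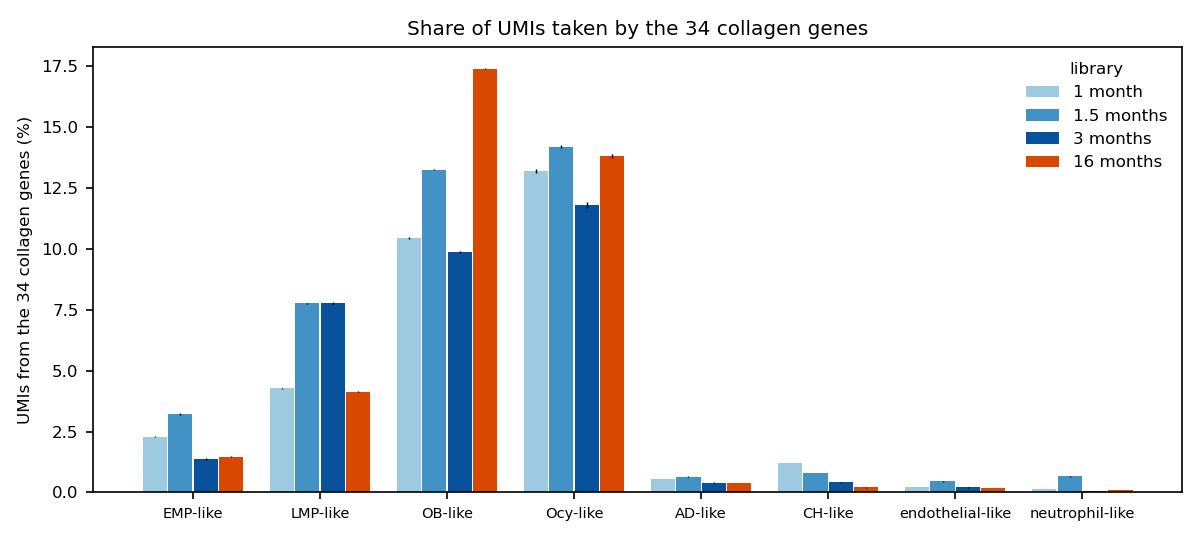
Share of all UMIs (%) of a class that came from the 34 collagen genes, by class of cells and library, with exact 95% binomial intervals as thin lines. OB-like and Ocy-like cells reach 9.87% to 17.4%, LMP-like cells 4.13% to 7.77%, EMP-like cells 1.37% to 3.22% and AD-like cells 0.403% to 0.651%.

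The make-up of this RNA also differed between classes. Col1a1 and Col1a2 made up 97.1% to 97.8% of the collagen UMIs of OB-like cells and 97.5% to 98.3% of those of Ocy-like cells. They made up 68.7% to 71.3% in LMP-like, 44.8% to 50.4% in EMP-like and 48.3% to 61.2% in AD-like cells. Outside OB-like and Ocy-like cells a large part of the collagen RNA thus came from other chains. Of the 34 genes, 21 reached 100 CPM in at least 1 group of 30 or more cells, 5 stayed between 10 and 100 CPM and 8 stayed below 10 CPM in every group. Across the 4 libraries, 22 reached 10 CPM in at least 1 mesenchymal class each time, namely the 21 and Col6a6.

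**Figure D2:**
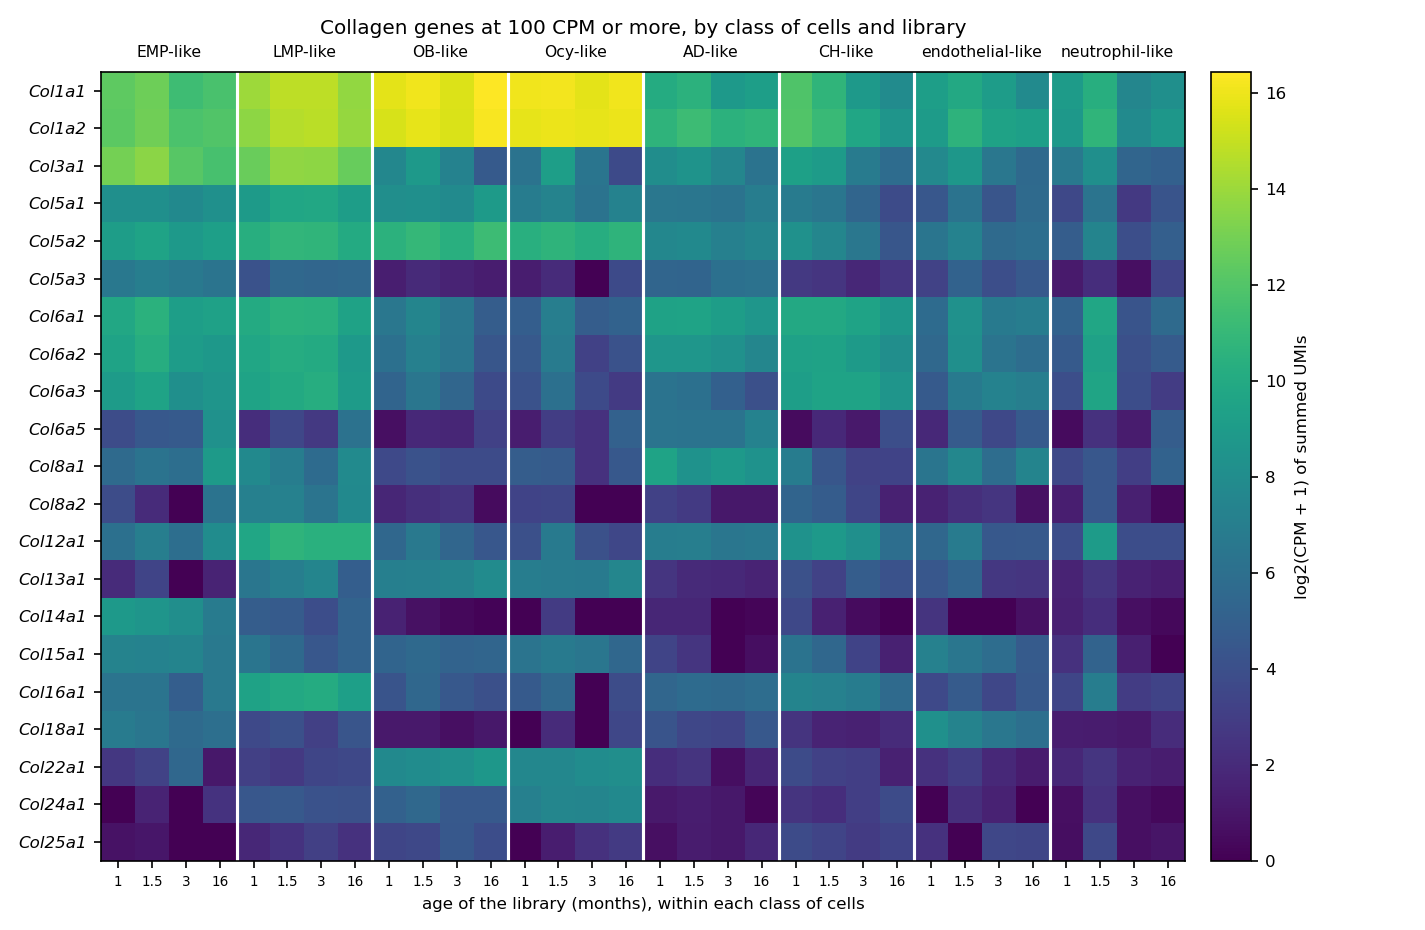
Level of the 21 collagen genes that reached 100 CPM, as log2(CPM + 1) of summed UMIs (colour), in 8 classes of cells (columns, each split by age of the library in months). Col1a1 and Col1a2 are brightest in OB-like and Ocy-like cells, Col3a1 in EMP-like and LMP-like cells and Col12a1 in LMP-like cells. The neutrophil-like column at 1.5 months stands above the other 3.

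Col1a1, on chromosome 11 from 94936224 to 94953042 (GRCm38, GENCODE M21), was counted at 57233 CPM (57026 to 57441), 69710 CPM (69501 to 69918), 49403 CPM (49165 to 49641) and 89423 CPM (89206 to 89641) in OB-like cells at 1, 1.5, 3 and 16 months. Ocy-like cells held 70652, 74571, 57260.3 and 70988 CPM of Col1a1, above OB-like cells in the 3 younger libraries and below them at 16 months. Single cells differed most at 16 months, where the 10th percentile of Col1a1 was 7.44 per 10000 UMIs in OB-like cells and 4.1 in Ocy-like cells, against medians of 673 and 454. It was 300 or more in both classes at 1 and 1.5 months, and 40.4 and 378 at 3 months, so part of each 16 month class carried little of the summed level. LMP-like cells held 16461, 28988, 28327 and 14055.5 CPM, and EMP-like cells 5293, 7151, 2574 and 3375 CPM. AD-like cells, at 1099, 1492, 461 and 589 CPM, stood above the 510, 1253, 189 and 285 CPM of neutrophil-like cells in each library. Erythroid-like cells had 549, 855, 152 and 3703 CPM, the last above the AD-like value. How much of the AD-like level at 16 months is free RNA was not tested.

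Col1a2 followed Col1a1 across classes, with a Spearman correlation of 0.98 over 28 groups of class and library, which share libraries and free RNA. It stood at 44456, 58928, 46680.3 and 80638 CPM in OB-like and at 12892, 25485, 27049 and 14938 CPM in LMP-like cells. The number of Col1a1 UMIs per Col1a2 UMI was 1.29, 1.18, 1.06 and 1.11 in OB-like cells. In AD-like cells the ratio was lower in each library, at 0.672, 0.599, 0.307 and 0.346, where Col1a2 reached 1635, 2491, 1499 and 1704 CPM. Neutrophil-like cells, with ratios of 1.15, 0.716, 0.792 and 0.678, lay above AD-like cells in each library. At 16 months erythroid-like cells held 3764 CPM of Col1a2, above the AD-like level, and neutrophil-like cells 421 CPM, below it. How much of the AD-like level, or of its ratio, comes from free RNA was not tested.

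Col3a1, the chain of type III collagen, was a gene of progenitor-like cells. It stood at 8268, 12058, 4547 and 3201 CPM in EMP-like cells and at 6677, 13675, 13126 and 6246 CPM in LMP-like cells. In OB-like cells it was 191.5, 471, 159 and 24.5 CPM, and the 16 month value lay below the 32.4 CPM of neutrophil-like cells. The OB-like level was 0.0287, 0.0345, 0.0121 and 0.00392 times the LMP-like level, with no overlap between these classes. Per Col1a1 UMI, EMP-like cells held 1.56, 1.69, 1.77 and 0.948 Col3a1 UMIs, LMP-like cells 0.406 to 0.472 and OB-like cells at most 0.00676. EMP-like cells thus held more Col3a1 than Col1a1 UMIs at 1, 1.5 and 3 months, and LMP-like and OB-like cells fewer in every library.

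RNA of type V chains divided by chain. Col5a2, which lies 24614 bases from Col3a1 on chromosome 1 on the opposite strand, did not share its pattern: OB-like cells held 1526, 1950, 1346 and 2426 CPM and LMP-like cells 1293, 1795, 1739 and 1081 CPM. Its closest partner was Col1a2, with a Spearman correlation of 0.96 over the 28 groups. Col5a1 was higher in LMP-like cells, at 499, 844, 915 and 570 CPM, than in OB-like cells, at 281, 295, 234 and 488 CPM. Per Col5a2 UMI, Col5a1 gave 0.386 to 0.528 UMIs in LMP-like, 0.151 to 0.201 in OB-like and 0.0613 to 0.101 in Ocy-like cells. Col5a3 reached 95.7, 130.3, 99.2 and 79.6 CPM in EMP-like cells and 1.57, 2.92, 2.08 and 1.51 CPM in OB-like cells. Mural-like cells, only 25, 65, 30 and 23 per library, had 258, 237, 179 and 344 CPM of Col5a3.

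For Col1a2, Col3a1, Col6a1, Col6a3 and Col6a5, the sequence from 250 bases before to 50 bases after the RefSeq start is shown, on GRCm38.p6. They were picked by hand and are not the genes with the largest differences. RefSeq tables matched 27 of the 34 genes, and Col1a1, Col4a3, Col5a2, Col12a1, Col14a1, Col22a1 and Col26a1 were not matched. The first 2 are fibrillar chains with opposite preference for OB-like and progenitor-like cells, and the last 3 are chains of type VI that were unequal in AD-like cells. Capitals mark a CCAAT box, a TATA box (TATAAA), a RUNX core (ACCACA) or a GC box (GGGCGG), each searched on both strands.
Col1a2, chr6:4505368-4505667, plus strand: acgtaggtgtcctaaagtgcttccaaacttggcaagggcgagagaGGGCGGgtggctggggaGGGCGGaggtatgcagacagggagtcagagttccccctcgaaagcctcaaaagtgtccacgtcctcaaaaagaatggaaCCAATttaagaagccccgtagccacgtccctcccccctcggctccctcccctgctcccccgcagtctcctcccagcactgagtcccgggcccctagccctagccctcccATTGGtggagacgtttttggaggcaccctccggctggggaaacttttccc
Col3a1, chr1:45311288-45311587, plus strand: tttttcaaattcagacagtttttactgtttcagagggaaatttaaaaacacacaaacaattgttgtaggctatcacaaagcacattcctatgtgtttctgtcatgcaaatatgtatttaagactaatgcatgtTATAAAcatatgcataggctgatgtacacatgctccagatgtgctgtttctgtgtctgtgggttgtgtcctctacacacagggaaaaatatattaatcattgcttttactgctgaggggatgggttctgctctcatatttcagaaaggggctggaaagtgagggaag
Col6a1, chr10:76725995-76726294, minus strand: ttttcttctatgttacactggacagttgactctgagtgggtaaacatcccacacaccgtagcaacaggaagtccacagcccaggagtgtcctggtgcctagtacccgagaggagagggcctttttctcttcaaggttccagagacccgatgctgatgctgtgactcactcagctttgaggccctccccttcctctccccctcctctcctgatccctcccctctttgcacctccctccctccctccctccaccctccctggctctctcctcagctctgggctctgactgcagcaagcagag
Col6a3, chr1:90843922-90844221, minus strand: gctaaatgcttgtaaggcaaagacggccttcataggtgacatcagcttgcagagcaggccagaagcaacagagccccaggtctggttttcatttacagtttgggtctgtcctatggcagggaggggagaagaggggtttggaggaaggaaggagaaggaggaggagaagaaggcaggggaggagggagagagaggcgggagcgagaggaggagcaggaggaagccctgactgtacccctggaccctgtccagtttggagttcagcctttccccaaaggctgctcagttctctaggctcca
Col6a5, chr9:105960594-105960893, minus strand: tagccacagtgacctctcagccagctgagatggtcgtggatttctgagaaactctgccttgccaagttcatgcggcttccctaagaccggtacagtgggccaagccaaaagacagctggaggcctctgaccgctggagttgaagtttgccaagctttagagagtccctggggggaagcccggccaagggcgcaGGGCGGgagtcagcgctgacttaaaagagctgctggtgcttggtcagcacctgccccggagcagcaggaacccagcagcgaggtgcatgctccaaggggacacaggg
These letters are common: CCAAT lay in 37.4% of 32851 mouse promoter windows of this length, TATAAA in 13.6%, ACCACA in 16.8% and GGGCGG in 35.7%. Among the 29 windows of the 27 matched genes, 9 held CCAAT, 3 TATAAA, 3 ACCACA and 17 GGGCGG. Col1a2 held GC boxes at bases -205 and -188 and CCAAT boxes at -109 and 0, counted from the start to the first base of the box, Col3a1 a TATA box at -117 and Col6a5 a GC box at -57, while the Col6a1 and Col6a3 windows held none. A match is a description of the letters and not a site.

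Type VI chains were shared by progenitor-like, AD-like and CH-like cells, and their proportions differed. Col6a1 was counted at 1076, 1478, 1361 and 703 CPM in LMP-like cells, 942, 1425, 605 and 685 CPM in EMP-like cells and 727, 739, 567 and 394 CPM in AD-like cells. OB-like cells held 90.04, 178, 92.3 and 27.5 CPM, and groups of OB-like cells lay below all 3 in each library. Neutrophil-like cells had 34.3, 848, 18.5 and 50.7 CPM of Col6a1, and erythroid-like cells at 1.5 months 152 CPM. At 3 months, 60 unnamed cells led by Folr2 and Npy held 2118 CPM of Col6a1 and 1353 CPM of Col6a2. The LMP-like level of Col6a2 was 1055 CPM in that library. Col6a2, 85161 bases away on chromosome 10, followed Col6a1 with a Spearman correlation of 0.98 over the 28 groups.

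Col6a3, whose chain completes the common type VI trimer, did not accompany Col6a1 in AD-like cells. It reached 760, 1027, 1200 and 512.5 CPM in LMP-like cells but 74.9, 67.6, 31.9 and 15.5 CPM in AD-like cells. The AD-like cells held 0.103 (0.0852 to 0.124), 0.0914 (0.0831 to 0.100), 0.0563 (0.0424 to 0.0736) and 0.0393 (0.0360 to 0.0427) Col6a3 UMIs per Col6a1 UMI. The same ratio was 0.695 to 0.882 in LMP-like, 0.484 to 0.554 in EMP-like, 0.425 to 0.495 in OB-like and 0.602 to 1.00 in CH-like cells. Its AD-like values lay below those of these 4 classes in every library, with intervals that did not overlap, although the OB-like ratio at 16 months rests on a Col6a1 level below that of neutrophil-like cells. Ocy-like cells had 0.579, 0.515, 0.429 (0.0715 to 1.88) and 0.167 (0.0420 to 0.485), and the last 2 intervals overlapped those of AD-like cells at 7 and 24 UMIs of Col6a1. The median AD-like cell held no Col6a3 UMI in any library, while its median Col6a1 level was 3.49 to 6.97 per 10000 UMIs.

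Col6a5 showed the opposite preference, with 79.0 CPM (66.3 to 93.5), 74.9 CPM (68.7 to 81.5), 77.3 CPM (64.9 to 91.3) and 157 CPM (153 to 161) among cells of the adipocyte lineage. LMP-like cells held 3.52, 10.2, 5.50 and 72.8 CPM, and EMP-like cells 13.5, 21.7, 24.8 and 315 CPM. AD-like cells were thus highest of the named classes in the 3 younger libraries, and EMP-like cells at 16 months. At 3 months, 49 unnamed cells led by Cxcl9 and Il33 held more Col6a5 than AD-like cells, at 210 CPM. Neutrophil-like cells had 0.391, 4.16, 1.43 and 27.6 CPM, highest at 16 months as well. In the 16 month library the AD-like subclusters ranged from 120 to 309 CPM of Col6a5. The related Col6a6 was found in EMP-like cells, at 98.0, 29.99, 39.7 and 12.7 CPM, and had at most 1.54 CPM in the other 5 named mesenchymal classes, where most values rest on 0 to 3 UMIs. Col6a4, which lies on chromosome 9 in the same run of genes, 28810 bases from Col6a5, stayed below 10 CPM everywhere.

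Among the FACIT chains, Col12a1 and Col16a1 were highest in LMP-like cells. Col12a1 stood at 848, 1675, 1414 and 1413 CPM there, against 44.7, 99.1, 42.6 and 21.5 CPM in OB-like and 65.1, 131, 59.5 and 251 CPM in EMP-like cells. Col16a1 stood at 722, 978.5, 1088 and 627 CPM in LMP-like and 18.1, 44.1, 22.0 and 15.1 CPM in OB-like cells, and correlated with Col12a1 at a Spearman value of 0.92 over the 28 groups. Col14a1 had another place, in EMP-like cells. It was counted there at 477 CPM (441 to 516), 380 CPM (342 to 420.5), 273 CPM (205.5 to 355) and 115 CPM (94.1 to 138), against 27.6, 25.2, 13.7 and 36.4 CPM in LMP-like and at most 2.38 CPM in AD-like and OB-like cells.

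Col22a1, a FACIT chain known from tissue junctions, was a gene of OB-like and Ocy-like cells. It reached 227 CPM (214 to 240.4), 251 CPM (239 to 264), 306 CPM (287 to 325) and 410 CPM (395 to 425) in OB-like cells and 198, 194, 258 and 277 CPM in Ocy-like cells. LMP-like cells held 7.54, 5.66, 9.62 and 10.8 CPM, so OB-like cells were 30.1-fold (21.0 to 44.8), 44.4-fold (31.8 to 63.9), 31.8-fold (18.9 to 58.3) and 38.1-fold (26.0 to 58.5) higher. A UMI of Col22a1 was found in 92.0%, 94.1%, 84.8% and 67.4% of OB-like cells, against 2.99%, 2.63%, 0.833% and 1.47% of neutrophil-like cells. With every cell thinned to 3000 UMIs, the OB-like shares were 49.5%, 47.8%, 57.1% and 71.3%. At 16 months, 113 of the 350 OB-like cells had fewer than 3000 UMIs and were left out of the thinned value.

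Col24a1, a fibrillar chain, was highest in Ocy-like cells. It stood there at 139.9 CPM (113 to 172), 183 CPM (161 to 208), 179 CPM (130.3 to 239) and 220.1 CPM (186 to 259), and in OB-like cells at 33.5, 45.7, 22.9 and 23.0 CPM. The Ocy-like level was 4.17-fold (3.20 to 5.41), 4.00-fold (3.35 to 4.77), 7.79-fold (5.27 to 11.4) and 9.57-fold (7.62 to 12.0) the OB-like level. Col22a1 by contrast was 0.871, 0.773, 0.845 and 0.675 times the OB-like level in Ocy-like cells. These are 33 to 94 cells per library.

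**Figure D3:**
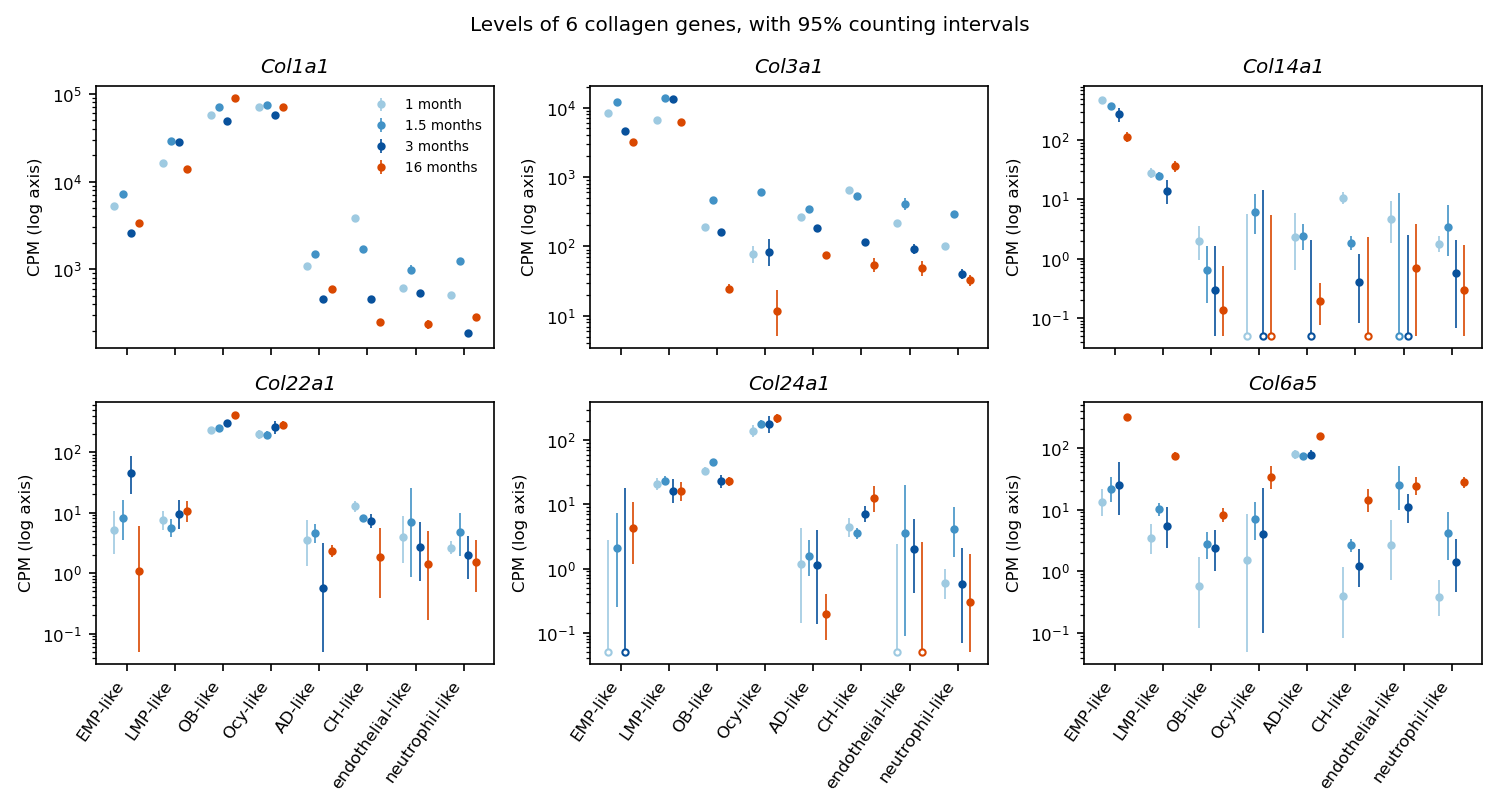
Levels (CPM on a log axis) of 6 collagen genes in 8 classes of cells, 1 point per library with its 95% Poisson interval; open points at 0.05 CPM stand for 0 UMIs. Col22a1 is high in OB-like and Ocy-like cells, Col24a1 in Ocy-like cells, Col14a1 in EMP-like cells, and Col6a5 in AD-like cells and, at 16 months, in EMP-like cells.

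The transmembrane chain Col25a1 peaked outside the named classes. In each of the sets clustered apart (1 with 1.5 months, 3 months and 16 months), 1 cluster that met no naming rule had Spp1 and Col25a1 among its leading genes, and these clusters held 92.0, 89.98, 88.8 and 115 CPM of Col25a1 in the 4 libraries, against 9.81, 10.7, 22.0 and 13.5 CPM in OB-like cells. They comprised 111, 164, 223 and 400 cells. The 3 month cluster was led by Mmp9 and Limch1 and the other clusters by Spp1, and whether they are the same kind of cell was not tested. Since Col25a1 is among their leading genes, its level is a description. These clusters held 175.5, 186, 121 and 167 CPM of Col13a1, another transmembrane chain, which reached 134, 142, 164 and 247 CPM in OB-like cells and 85.9, 129, 177 and 29.8 CPM in LMP-like cells. Col13a1 in AD-like cells was at most 4.68 CPM.

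Of the type VIII chains, Col8a1 and Col8a2 had different places. Col8a1 was counted at 745, 334, 471 and 333 CPM in AD-like cells, at 218, 125, 52.9 and 230.4 CPM in LMP-like cells and at 11.6, 17.03, 12.5 and 12.5 CPM in OB-like cells. Col8a2 was an LMP-like gene, with 140.4, 148, 81.0 and 221 CPM, and had 8.20, 5.89, 1.12 and 1.13 CPM in AD-like cells. Unnamed cells led by Nov and Mfap4, of which the 1, 1.5 and 3 month libraries had 250, 241 and 239, held both, with 1181, 1278 and 778 CPM of Col8a1 and 170.2, 417 and 412.5 CPM of Col8a2. These levels exceeded those of the named mesenchymal classes in the same libraries. At 1 month, 214 other unnamed cells, led by Kcnk2 and Slc20a2, held the most Col8a1, at 1245 CPM.

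The multiplexins were shared with vessels. Col15a1 stood at 165, 156, 169 and 99.8 CPM in EMP-like and 152, 85.1, 57.5 and 25.8 CPM in endothelial-like cells. Ocy-like cells held 80.6, 107, 87.4 and 44.6 CPM of it, and OB-like cells 39.2, 48.3, 36.3 and 39.7 CPM. Unnamed mesenchymal cells held more Col15a1 than EMP-like cells in the younger libraries. Those led by Nov and Mfap4 had 301 and 220 CPM at 1 and 1.5 months, and those led by Folr2 and Npy 254 CPM at 3 months. Col18a1, the source of endostatin, stood at 525, 639, 429 and 453 CPM in the few mural-like cells and in EMP-like cells at 114, 87.9, 49.6 and 62.6 CPM. Endothelial-like cells held 301, 159.6, 90.7 and 63.5 CPM of Col18a1. OB-like cells had at most 1.18 CPM.

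The other 13 genes were rare in these cells. Col23a1 reached 18.6 CPM in LMP-like cells at 16 months. Col4a5 and Col4a6, neighbours on chromosome X, reached 21.2 CPM each in CH-like cells at 16 months, Col4a5 also 20.9 CPM in EMP-like cells at 1 month, and Col4a6 had 0 UMIs in AD-like, Ocy-like, OB-like and LMP-like cells of all libraries. Col19a1 passed 10 CPM in mural-like cells at 3 months alone, at 17.9 CPM in 30 cells. Col4a3, Col4a4, Col6a4, Col7a1, Col17a1, Col20a1, Col26a1 and Col28a1 stayed below 10 CPM in every group of 30 or more cells. In the 33 Ocy-like cells at 3 months, Col4a4, Col6a4, Col17a1, Col20a1, Col26a1 and Col28a1 had 0 UMIs, for which the 95% interval reaches 14.65 CPM.

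The contrasts between classes were then counted. A gene was counted as higher or lower where its ratio passed 2-fold in the same direction in all 4 libraries, among genes at 10 CPM or more in 1 of the classes each time. In OB-like against LMP-like cells, 18 of the 34 were tested and 1, Col22a1, was higher, against 2.03% of all 6248 genes. The 10 that were lower, against 11.7% of all genes, were Col3a1, Col5a3, Col6a1, Col6a2, Col6a3, Col8a1, Col8a2, Col12a1, Col14a1 and Col16a1. The median log2 ratio over the 18 was -3.60, and over all genes tested -0.54. Col1a1 was higher in OB-like cells by 3.48-fold, 2.41-fold, 1.74-fold and 6.36-fold, and Col1a2 by 3.45-fold, 2.31-fold, 1.73-fold and 5.398-fold, so the 3 month library kept both from being counted. Without it, 3 genes were higher, and the share over all genes was not computed for that case.

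In AD-like against LMP-like cells, 14 of 18 genes were lower, against 4.73% of 7080 genes, and 1, Col6a5, was higher, against 7.23%. The lower ones were Col1a1, Col1a2, Col3a1, Col5a1, Col5a2, Col6a2, Col6a3, Col8a2, Col12a1, Col13a1, Col14a1, Col15a1, Col16a1 and Col24a1. The median log2 ratio was -3.47 over these 18 and 0.11 over all. Among the lowest were Col3a1, at 0.0392, 0.0255, 0.0139 and 0.0120 times the LMP-like level, and Col13a1, at 0.0545, 0.0218, 0.0158 and 0.0701 times. Col6a5 was 22.5-fold (12.9 to 42.2), 7.36-fold (5.66 to 9.71), 14.1-fold (6.94 to 33.2) and 2.16-fold (1.85 to 2.52) higher. Col8a1 was 3.42-fold, 2.68-fold, 8.91-fold and 1.44-fold higher, so that 2 genes were higher without the 16 month library. The share over all genes was not computed for that case.

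In EMP-like against LMP-like cells, 20 genes were tested. The 4 that were higher, against 2.60% of 6611 genes, were Col6a5, Col6a6, Col14a1 and Col18a1, and the 6 that were lower, against 1.56%, were Col1a1, Col1a2, Col8a2, Col12a1, Col13a1 and Col16a1. Col6a5, at 3.83-fold, 2.13-fold, 4.51-fold and 4.33-fold, was no longer counted in 6 of 11 other settings and Col6a6 in 3, while Col14a1 was counted in all 11. The median log2 ratio was -0.55 over the 20 and 0.03 over all genes. Col14a1 was 17.3-fold, 15.1-fold, 19.9-fold and 3.15-fold higher and Col18a1 10.1-fold, 5.79-fold, 6.56-fold and 3.22-fold higher. For Col6a6, LMP-like cells had 0 UMIs at 3 months, where the level was at least 19.2-fold higher in EMP-like cells on a floor of 3 counts per library. Col3a1, without a common direction, had ratios of 1.24, 0.882, 0.346 and 0.512.

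**Figure D4:**
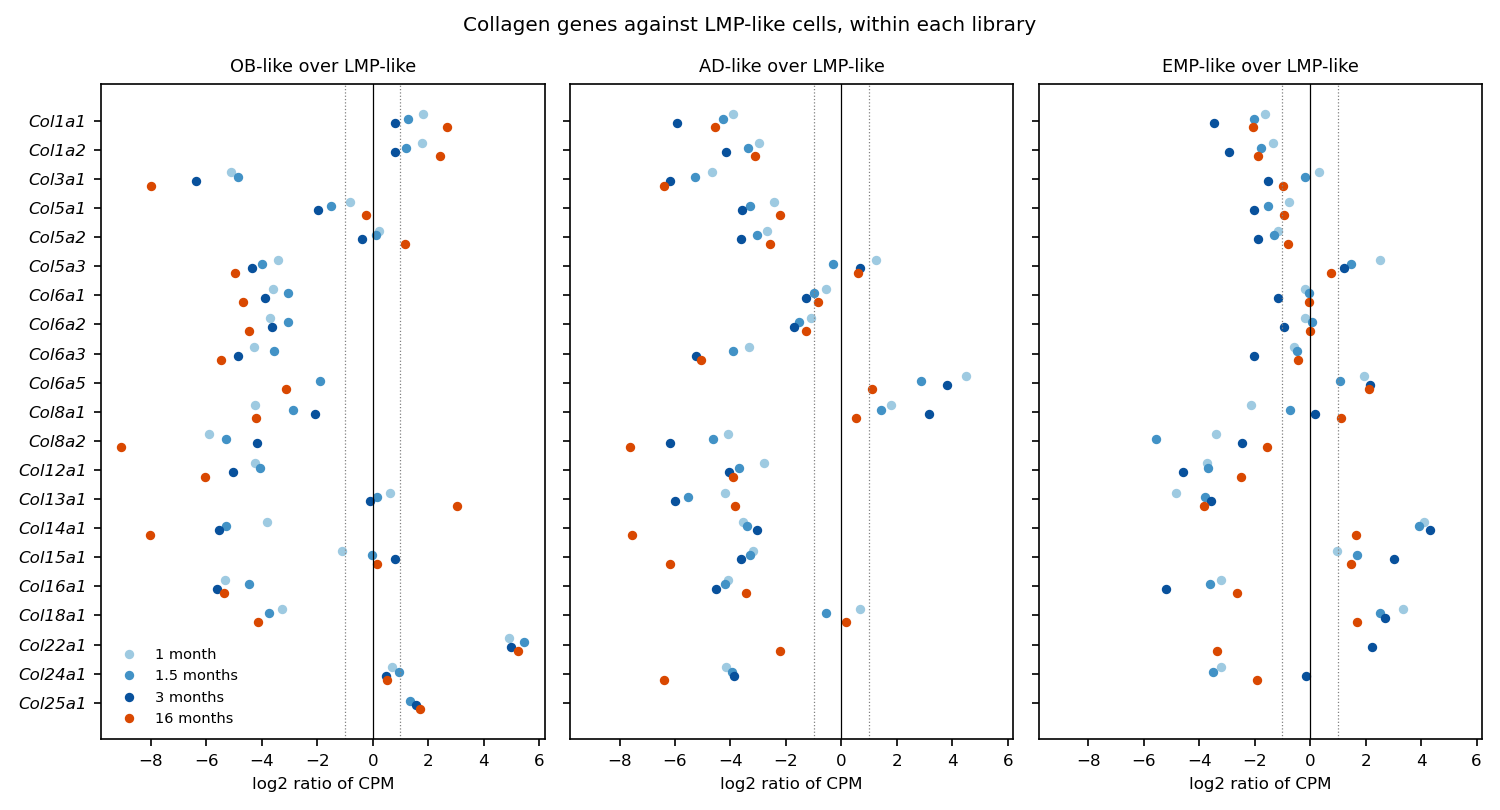
Log2 ratio of the level in OB-like (left), AD-like (middle) and EMP-like (right) cells over LMP-like cells, 1 point per library, for genes at 10 CPM or more in either class; counts of 0 are set at 3 counts and dotted lines mark 2-fold. Col22a1 lies far to the right for OB-like cells, most genes lie to the left for AD-like cells, and Col14a1 and Col18a1 lie to the right for EMP-like cells.

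The 16 month library was set against the mean of the other 3 within a class, and a gene was counted where the ratio passed 2-fold and the 16 month value lay outside the range of the others. In OB-like cells 5 of 16 genes were lower, against 6.39% of 6914 genes, and 0 were higher, against 7.91%. Col3a1 was at 24.5 CPM against 191.5, 471 and 159 CPM, a log2 difference of -3.48, Col6a1 at -2.13, Col6a2 at -2.25, Col6a3 at -2.27 and Col12a1 at -1.53. The 16 month levels of Col3a1, Col6a1 and Col6a2 in OB-like cells lay below those of the neutrophil-like cells of that library, so they are read as background. With neutrophil-like levels subtracted in every library, 1 gene, Col3a1, was lower, against 6.98% of all genes. At 1.5 months the OB-like levels of Col6a1, Col6a2, Col6a3 and Col12a1 lay at or below the neutrophil-like levels, and became 0. That setting therefore could not count these genes as lower. The 16 month level of Col3a1 also became 0 and was set to the floor of 3 counts. Col1a1 had its highest OB-like level at 16 months, at 1.52 times the mean of the others.

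In AD-like cells 3 of 14 genes were lower, against 6.21% of 8740 genes, and 1 was higher, against 11.6%. Col3a1 was at 75.0 CPM against 262, 349 and 183 CPM (log2 difference -1.82), Col6a3 at 15.5 CPM against 74.9, 67.6 and 31.9 CPM (-1.91), and Col6a2 at 186 CPM against 400.4, 398 and 320 CPM (0.4998 times). Col6a5 was higher by 1.03 on the log2 scale, and it was not counted in 4 of 11 other settings: with neutrophil-like levels subtracted, at a clustering resolution of 0.5, from means of single-cell values and with cells thinned to 3000 UMIs. Col6a2 lay at the 2-fold limit and was counted in 2 of the 11, while Col3a1 and Col6a3 were counted in 10 each. Subtraction could not count Col6a2 or Col6a3 as lower, because both lay at or below the neutrophil-like level at 1.5 months. Serpinh1, the collagen chaperone, was also lower, at 827 CPM against 1836, 2264 and 1830 CPM. It was counted as lower in LMP-like, EMP-like, CH-like and endothelial-like cells too, so this was not particular to AD-like cells. AD-like cells made up 60.0% of all cells at 16 months, against 2.59% to 21.7% in younger libraries, and the part of this make-up in these differences was not tested.

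In LMP-like cells 2 of 21 genes were lower, against 11% of 8699 genes, and 2 were higher, against 21.0%. The lower count was near the share of all genes, and the higher count below it. Col13a1 was at 29.8 CPM against 85.9, 129 and 177 CPM, and Col6a2 at 449.7 CPM against 860, 1153 and 1055 CPM. Col6a5 was at 72.8 CPM against 3.52, 10.2 and 5.50 CPM, and Col23a1 at 18.6 CPM against 6.53, 6.30 and 10.3 CPM. Without the 1 month library, 6 genes were lower, and the share over all genes was not computed for that case. Markers of AD-like cells summed to 4415 CPM in LMP-like cells at 16 months, against 459, 1073 and 616 CPM. In the 16 month library the same markers summed to 4433 CPM in neutrophil-like and 4891 CPM in erythroid-like cells. Their part in the Col6a5 value was not tested.

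The 16 month EMP-like cells are given by their values alone. Col6a5 stood at 315 CPM (280.5 to 353) against 13.5, 21.7 and 24.8 CPM, and Col8a1 at 503 CPM against 50.1, 75.5 and 59.5 CPM. Col14a1 stood at 115 CPM against 477, 380 and 273 CPM, and Col3a1 at 3201 CPM against 8268, 12058 and 4547 CPM. Clec3b, a marker used to name these cells, stood at 462 CPM against 2148, 3464 and 3070 CPM. The 16 month cluster raised 6 of the 7 EMP markers, and the younger clusters all 7. The part of this in the Col14a1 and Col3a1 values was not tested. The AD-like marker list, in which all 10 genes were detected at 16 months, summed to 9190 CPM in these 110 cells. EMP-like cells of the other libraries had 577, 1854 and 1106 CPM. At 16 months the list summed to 4433 CPM in neutrophil-like and 4891 CPM in erythroid-like cells. Its part in the Col6a5 and Col8a1 values was not tested. Col8a2, which AD-like cells carried at 1.13 CPM, was at 74.3 CPM in EMP-like cells at 16 months, against 13.5, 3.10 and 0 CPM.

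**Figure D5:**
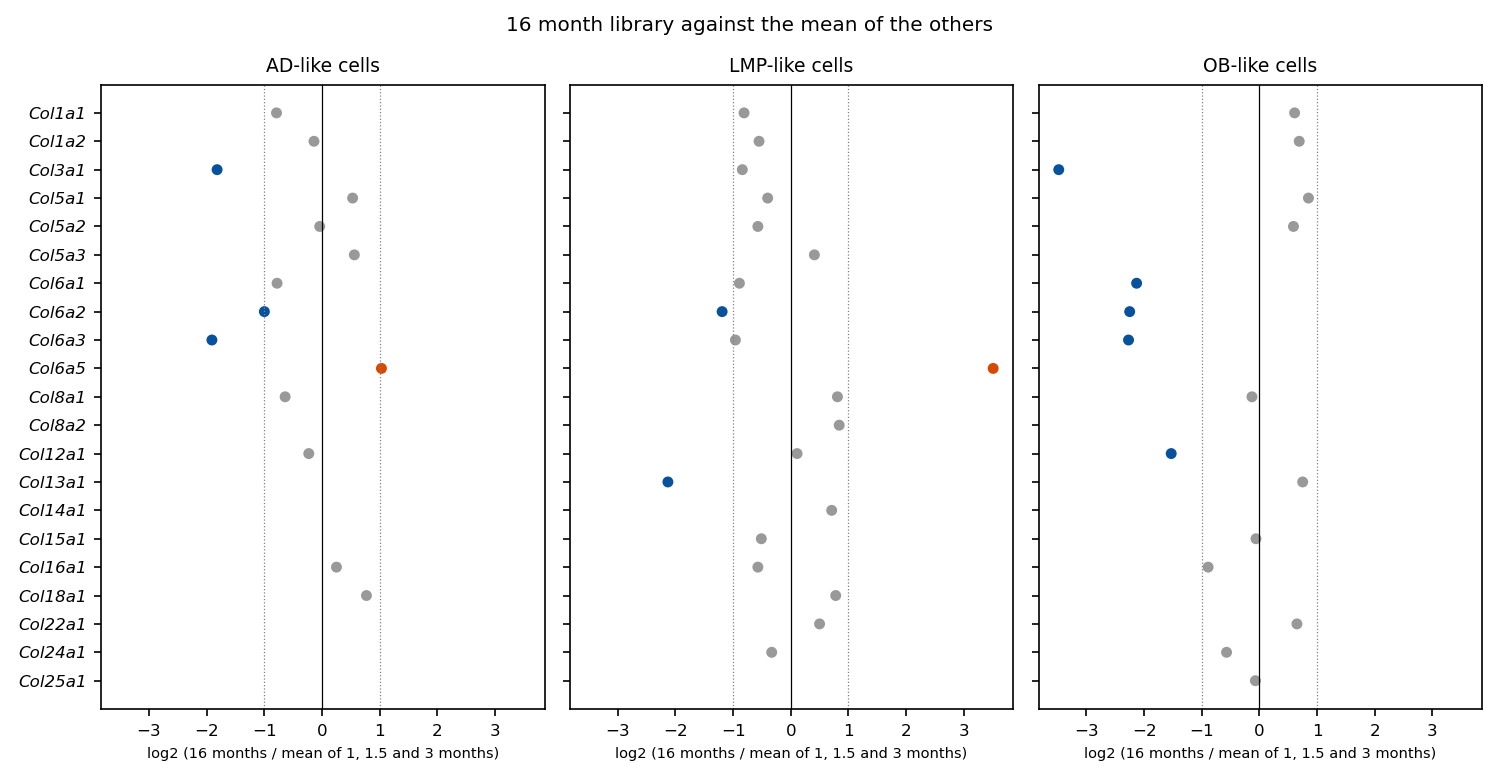
Log2 ratio of the 16 month level over the mean level at 1, 1.5 and 3 months in AD-like, LMP-like and OB-like cells; blue points were counted as lower, orange points as higher, grey points as neither, and dotted lines mark 2-fold. Col3a1 and the type VI chains are lowest in OB-like cells, and Col6a5 is highest in LMP-like cells.

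The genes that fold, trim and receive collagen were followed on 3 lists. Among the 20 genes of folding and modification, of which 18 were tested in OB-like against LMP-like cells, 0 were higher and 1, P4ha3, was lower. The share of all genes was 2.03% higher and 11.7% lower in that contrast, 7.23% and 4.73% for AD-like and 2.60% and 1.56% for EMP-like cells, and with 5 to 19 genes tested per list most of these counts are 0 or 1. In AD-like cells 1 of 19, P3h2, was higher and 3 were lower (P4ha3, Creb3l1 and P4ha2), and in EMP-like cells 0 of 17 differed. Of the 12 genes of propeptide removal and crosslinking, Loxl1 was lower of 7 tested in OB-like, Pcolce lower of 7 in AD-like and Pcolce2 higher of 8 in EMP-like cells. Of the 8 receptors, Itga11 was lower of 5 in OB-like cells, Itga1 and Ddr1 higher and Itga10 and Itga11 lower of 7 in AD-like cells, and 0 of 5 differed in EMP-like cells.

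At 16 months, 5 of 19 folding genes were lower in LMP-like cells, with Serpinh1, P3h1 and P4ha2 the lowest, against 11% of all genes. In AD-like cells 2 of 18 were lower (P4ha2 and Serpinh1), against 6.21%, in OB-like cells 0 of 17, against 6.39%, and 0 were higher in these classes. Serpinh1 in LMP-like cells stood at 1004 CPM against 3777, 4952 and 4020 CPM. It was also counted as lower in EMP-like, CH-like and endothelial-like cells, and was at 0.519 times the mean of the others in OB-like cells. Of the trimming and crosslinking genes, 1 was higher and 2 lower of 8 in LMP-like cells, 0 higher and 1 lower of 9 in AD-like cells, and 2 higher and 2 lower of 9 in OB-like cells. Over all genes, 21.0% were higher in LMP-like, 11.6% in AD-like and 7.91% in OB-like cells. Pcolce2, an enhancer of procollagen trimming, was lower in all 3 classes, at 3.72, 1.04 and 2.75 CPM at 16 months. Of the receptors, Itga1 was higher in all 3, at 62.1 CPM against 1.51, 1.78 and 2.06 CPM in LMP-like cells, 304 CPM against 62.6, 39.4 and 52.1 CPM in AD-like cells and 10.3 CPM against 0.596 to 0.811 CPM in OB-like cells, and Ddr2 was higher in LMP-like cells. The receptors counted as higher were 2 of 7 tested in LMP-like, 1 of 6 in AD-like and 1 of 6 in OB-like cells. Itga1 was counted as higher in EMP-like, CH-like and endothelial-like cells as well. The 16 month table lists other genes than the younger tables, and how its gene models count Itga1 was not tested.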

How the data were processed

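Endosteal Td+ cells of 4 ages (1, 1.5, 3 and 16 months) were sequenced as 1 library each. The authors deposited raw UMI counts per gene and barcode, made per the labels with Cell Ranger 3.0.2 on mm10; the 16 month table lists 31054 genes and the others 27999, and 26600 shared genes were used. Barcodes outside 200 to 6000 genes, or over 5% mitochondrial UMIs, were dropped. The remaining cells were clustered with Seurat 5.3.0 (2000 variable genes, 30 components, resolution 0.8), the 1 and 1.5 month libraries aligned together, with all collagens and listed genes left out of the variable genes. Clusters were named from fixed markers, each raised 2-fold. Doublets were not removed from the values given: automatic calls marked 324, 97, 10 and 12 cells, and removing the highest-scoring 8% instead was an alternative. UMIs were summed per class and library, and expressed as CPM. Classes of 30 cells or more entered the counted comparisons, and mural-like values at 1 and 16 months come from fewer.

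With 1 library per age, no test was made. A gene was counted past 2-fold, at 10 CPM or more, in every library between classes, or outside the range of the other libraries for age. Intervals are exact Poisson or Clopper-Pearson at 95%. Values were to be given for genes at 100 CPM or more in a class, for up to 5 per comparison and direction, and for up to 3 from each pathway list and direction. Other counted genes are named without values, and values of rarer genes, such as Col6a6 and Col23a1, were added after they were seen. The genes and lists were chosen with earlier results of these data known. The counting rules were tested on simulated data. Alternatives covered clustering, filters, doublets, scaling (edgeR 4.0.16 TMM factors only), thinning to 3000 UMIs, subtraction of neutrophil-like levels and leaving out each library. Python 3.11.15 and R 4.3.3 were used.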

Additional observations from a re-analysis of the deposited data

Results flagged for a closer look

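Col8a1 was set apart because its direction between EMP-like and LMP-like cells was opposite in 2 libraries. Its EMP-like level was 0.2298 times the LMP-like level at 1 month (50.1 against 218 CPM, counting interval of the ratio 0.177 to 0.295) and 2.184 times at 16 months (503 against 230.4 CPM, 1.93 to 2.47). With 1 library per age, the difference between the libraries was not tested. Markers of AD-like cells summed to 9190 CPM in the EMP-like cells at 16 months and to 577 CPM at 1 month. In neutrophil-like cells the same markers summed to 4433 CPM at 16 months and to 125 CPM at 1 month. Their part in the Col8a1 values was not tested.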

How the results depend on the processing

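No paired test between ages was possible because each age is 1 library, and no result comes from a test. Ratios between classes were taken within each library. Of 277 values recomputed under 16 alternatives, 181 stayed within the limits set for them and 96 moved, and the cause was not tested. The settings below follow one order: resolution 0.5, resolution 1.2, up to 10% mitochondrial UMIs, doublets removed, collagens kept among the variable genes, 1 and 1.5 months clustered separately, means of single-cell values, thinning to 3000 UMIs, TMM scaling, collagens left out of the total, and neutrophil-like levels subtracted. The median share of UMIs over libraries was 1.88% in EMP-like cells and became 1.99, 1.87, 2.23, 2.01, 2.01, 1.96, 1.86, 1.86, 1.55, 1.92 and 1.77%. In LMP-like cells 6.02% became 4.85, 6.61, 5.69, 5.76, 4.84, 5.87, 5.82, 5.85, 5.62, 6.46 and 5.63%. In OB-like cells 11.8% became 11.9, 12.3, 11.8, 11.8, 11.9, 11.4, 11.1, 11.9, 16.5, 13.6 and 11.6%. In Ocy-like cells 13.5% became 13.5, 13.5, 13.2, 13.5, 13.5, 13.5, 12.2, 12.2, 14.1, 15.6 and 13.4%. In AD-like cells 0.481% became 0.48, 0.516, 0.497, 0.479, 0.55, 0.511, 0.438, 0.439, 0.427, 0.485 and 0.327%.

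Genes higher in OB-like than LMP-like cells numbered 1, and 3 at resolution 0.5 and with collagens kept, 4 under TMM (Col1a1, Col1a2, Col22a1 and Col25a1), and 2 with separate clustering, single-cell means, collagens out of the total or no minimum level. TMM moved the median log2 ratio of all genes there from -0.54 to 0.07. Over all genes, 4.09% were higher under TMM and 1.84% to 2.36% in the other settings named. With no minimum level the share over all genes was not computed, here or below. Genes higher in EMP-like cells numbered 4, and 2 at resolution 0.5, with 10% mitochondrial UMIs and under TMM. Over all genes, 1.94%, 1.63% and 2.10% were higher in these settings. Col6a5 was lost in 6 of 11 settings. At 16 months, AD-like genes higher numbered 1, and 0 at resolution 0.5, from single-cell means and after subtraction. They numbered 2 at resolution 1.2 and 4 with no minimum. Over all genes, 11.4% to 16.2% were higher in the settings other than no minimum. AD-like genes lower numbered 3, and 1 with doublets removed or after subtraction, where 7.40% and 6.75% of all genes were lower. Under thinning the 1 gene higher was Col18a1 in place of Col6a5, and Col6a2 was no longer lower in 9 of 11 settings, with Col8a1 in its place at resolution 1.2 and with separate clustering. LMP-like genes higher numbered 2, and 7 at resolution 1.2, where 21.0% of all genes were higher. Those lower numbered 2, and 1 with doublets removed or after subtraction, where 10.6% and 10.7% of all genes were lower. They numbered 6 under TMM, where 17.4% of all genes were lower. OB-like genes higher numbered 0, and 2 from single-cell means or with no minimum and 1 under TMM or with collagens out of the total. Over all genes, the share higher was 7.91% in the main values and 22.0% from single-cell means. It was 8.14% under TMM and 10.6% with collagens out of the total. OB-like collagen genes lower numbered 5, and 3 from single-cell means and 1 after subtraction, where 6.09% and 6.98% of all genes were lower. Subtraction cannot count as lower a gene that lay at or below the neutrophil-like level at 1.5 months.

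The share over all genes was not computed with a library left out, so the counts that follow stand without it. Leaving out each library in turn gave 1 to 3 genes higher and 10 to 11 lower in OB-like, 1 to 2 and 14 in AD-like, and 4 to 5 and 6 to 7 in EMP-like against LMP-like cells. At 16 months it gave 1 to 2 higher and 2 to 4 lower in AD-like, 2 to 3 and 2 to 6 in LMP-like, and 0 and 5 to 6 in OB-like cells, and 22 to 23 genes at 10 CPM in every library. Shares ranged from 0.405 to 0.557% in AD-like, 1.47 to 2.29% in EMP-like, 4.27 to 7.77% in LMP-like, 10.4 to 13.2% in OB-like and 13.2 to 13.8% in Ocy-like cells. Rare chains are limited by the 33 to 94 Ocy-like and 51 to 168 EMP-like cells per library.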
